A study of Mus musculus with 67 samples.

Results

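The genes described here encode the translation initiation factors (Eif) and elongation factors (Eef) of the mouse, the proteins that start and extend polypeptide chains on the ribosome. They were taken as every row whose gene symbol begins with Eif1 to Eif6, Eef1 or Eef2, which gave 65 of 24684 genes listed in the 3 count tables of the series. These 65 include regulators that share the name, such as the eIF2 kinases (Eif2ak), the eIF4E-binding proteins (Eif4ebp) and the eEF2 kinase (Eef2k). After the filter on low counts 63 members were tested in the driver experiment, 62 in the digestion experiment and 63 in the LPS experiment. Eif4e1b, a germ-line form of the cap-binding protein, passed it in no experiment.

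RNA was sequenced from the brains of C57BL/6J mice in 67 libraries, and the genotype was RLP22HA/HA in every group. This RiboTag allele lets Cre recombinase put an HA tag on a protein of the large ribosomal subunit, so that an anti-HA antibody can pull ribosomes of the recombined cells, with the RNA on them, out of a whole-tissue homogenate. Cre came from 1 Cx3cr1 allele, a gene of microglia and other macrophages, either as CX3CR1CreER/WT, which needs tamoxifen (4 gavages of 5 mg at the age of 4 to 6 weeks), or as the constitutive CX3CR1Cre/WT. The pull-down was made in cycloheximide, which holds ribosomes on RNA, and mouse IgG1 served as the isotype control, in an amount that the labels do not match to that of anti-HA. Input was a small part of the cleared homogenate taken before the antibody was added. Sorted cells were GR1 negative, CD45 intermediate and CD11b positive.

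In the driver experiment, anti-HA, IgG1 and input libraries were made from CX3CR1CreER/WT mice with tamoxifen (3 each), mice of that genotype without tamoxifen (2 each) and CX3CR1Cre/WT mice without tamoxifen (3 each). The digestion experiment used CX3CR1CreER/WT mice with tamoxifen and held anti-HA (3), IgG1 (4), cells sorted after a collagenase digest (4) and cells from undigested brain (4). For the LPS experiment, mice of that genotype, all with tamoxifen, received PBS or 2.5 mg/kg lipopolysaccharide (LPS), a bacterial product that activates innate immune cells, and were killed 3 h after LPS. Anti-HA, IgG1, sorted cells and anti-HA pull-down from sorted cells were sequenced from 3 PBS and 4 LPS mice each. Replicates were individual mice and each animal gave both sorted cells and pull-down, per the design text, so p-values measure the spread between mice. Titles of the LPS experiment carry a running number from 1 to 7 that recurs across preparations, and no label says that it marks an animal. Libraries of 1 animal therefore entered the fit as independent.

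In translation initiation, eIF2 brings the initiator tRNA to the small ribosomal subunit, eIF3 organises the complex, and the cap-binding protein eIF4E, the scaffold eIF4G and the RNA helicase eIF4A load it onto the mRNA. Phosphorylation of eIF2 by stress kinases lowers general initiation, and eIF4E-binding proteins block eIF4E unless they are phosphorylated in the mTOR pathway. In elongation, eEF1A delivers aminoacyl-tRNA, the eEF1B complex reloads eEF1A with GTP, and eEF2, which eEF2 kinase inhibits, moves the ribosome along. Eef1a1 is the widely expressed eEF1A gene, and Eef1a2 replaces it in mature neurons and muscle.

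Many mRNAs of this machinery begin with a C followed by pyrimidines, the 5′ terminal oligopyrimidine tract through which mTOR regulates them. The sequences shown are 30 bases near the RefSeq gene start (mouse build GRCm38.p6, transcribed strand, 5′ to 3′), with the longest run in capitals that begins with C and holds at least 7 C or T. They are given for both eEF1A genes, for Eif3f, and for the helicase genes Eif4a1 and Eif4a2, whose windows hold no such run. The Eef1a2 run begins at base 18 downstream of the gene start, so the stretch shown lies wholly downstream of it.
Eef1a1: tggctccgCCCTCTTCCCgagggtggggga
Eef1a2: cactggttCTCTCCCTCgctccggtgcatc
Eif3f: gttctaggCTCTCTCTCTTTCTCggcaaga
Eif4a1: acaaagtaacgtcacgtcgagttgcagagc
Eif4a2: ccgcggaaaccccgtaggagcagggcggcc
These windows lie at chr9:78481708-78481737 (Eef1a1, minus strand), chr2:181156977-181157006 (Eef1a2, minus), chr7:108934403-108934432 (Eif3f, plus), chr11:69672409-69672438 (Eif4a1, minus) and chr16:23107453-23107482 (Eif4a2, plus). Searched on the transcribed strand within 30 bases either side of each start, a run was found for 19 of the 50 members with a RefSeq window (38.0%) and for 29.7% of 27025 genes. The letters say nothing of the start site used in these cells.

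Library totals ran from 166851 to 3513317 reads over genes, lowest in pull-downs from sorted cells and in pull-downs without tamoxifen (186099 and 219521 reads). Levels are reads of a gene relative to its library (CPM), with library sizes scaled by TMM, edgeR's trimmed mean of log ratios, and are compared between libraries, not between genes, since the lengths of the transcripts were not used. The labelled cell type was checked with 15 microglial markers, whose summed CPM was 69630 to 90760 in the tamoxifen pull-down, 918.2 to 1075 in its input, 58040 to 64500 in cells sorted after collagenase and 2853 to 6959 in the pull-down with the constitutive driver, far below the other pull-downs with recombination by tamoxifen. Summed CPM of 13 neuronal markers was 1943 to 2541 in the tamoxifen pull-down, 7434 to 7664 in its input, 8059 to 8487 in its IgG1 control and 7674 to 9775 in the constitutive pull-down. One of the constitutive pull-downs, replicate 1, stood apart in markers of other cells, so counts that rest on it are also given without it. In bulk RNA, fewer cells of a type and less RNA per cell cannot be told apart. Differences are log2 fold changes ± standard error from edgeR's quasi-likelihood test, with p-values adjusted by Benjamini-Hochberg over all genes tested in the experiment, and a gene was called where its adjusted p was under 0.05.

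The pair of eEF1A genes separated the preparations. In the tamoxifen mice of the driver experiment, Eef1a1 stood at 781, 733 and 677 CPM in the pull-down, 303, 350.3 and 207 CPM in input and 559, 414 and 647 CPM with IgG1. Eef1a2 stood at 756, 419 and 536 CPM in the pull-down, 673, 657 and 237 CPM in input and 1748, 1515 and 1871 CPM with IgG1. Every pull-down library exceeded every input and IgG1 library for Eef1a1, whereas for Eef1a2 the pull-down overlapped input and lay below all IgG1 libraries. Eef1a1 was higher in pull-down than in input, with a log2 fold change of 1.35 ± 0.24, adjusted p = 8.62e-06. The corresponding value of Eef1a2, 0.13 ± 0.30, adjusted p = 0.706, was within error of 0. Against IgG1, Eef1a2 was lower (-1.58 ± 0.30, adjusted p = 6.17e-05) and Eef1a1 did not pass the threshold (0.44 ± 0.23, adjusted p = 0.0973). IgG1 libraries themselves exceeded input for both genes, by 0.92 ± 0.23 for Eef1a1 and 1.72 ± 0.30 for Eef1a2.

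Within a library, the share of Eef1a2 among the reads of both genes needs no scaling between libraries, and it can be compared between groups though not read as a ratio of mRNA molecules. It was 43.3% ± 6.46 (SD, n = 3) in the tamoxifen pull-down, 62.5% ± 8.15 (SD, n = 3) in input and 76.2% ± 2.15 (SD, n = 3) with IgG1, and the pull-down libraries lay below all others. With the constitutive driver it was 84.4% ± 3.18 (SD, n = 3) in the pull-down, above its input at 69.8% ± 8.63 (SD, n = 3) without overlap, and overlapping its IgG1 control at 79.0% ± 3.36 (SD, n = 3). Without tamoxifen the pull-down, at 76.3% ± 4.58 (SD, n = 2), overlapped IgG1 at 72.2% ± 1.78 (SD, n = 2) and input at 75.3% ± 0.858 (SD, n = 2). In an exact two-sided permutation test of the share, 3 libraries against 3 cannot give p below 0.1, and the comparisons of the tamoxifen pull-down with input and IgG1 and of the constitutive pull-down with its input reached that value (exact permutation, adjusted p = 0.15 over 21 comparisons). The 2 against 2 comparisons cannot go below 0.333.

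In the digestion experiment, Eef1a2 was nearly absent from sorted cells. It stood at 378, 297 and 297 CPM in pull-down and 2190.3, 1532, 1376 and 1452 CPM with IgG1, but at 2.14, 2.03, 0 and 0 CPM in cells sorted after collagenase and 0 CPM in all 4 libraries sorted without it. The pull-down held 1441 Eef1a2 reads in all and the collagenase-sorted libraries 5, a depth-scaled ratio of 296 (exact 95% confidence interval 127 to 913, counting error only). Against the other sorted group it was at least 533-fold higher, with a floor of 3 reads over the group. Eef1a1, in contrast, was read in every sorted library, at 787, 848, 574 and 701 CPM after collagenase beside 1055, 801 and 1033 CPM in pull-down. Its sorted values lay partly within the range of the pull-down, and its log2 fold change of -0.40 ± 0.14, adjusted p = 0.00903 was lost under total-count scaling (-0.23, adjusted p = 0.127), without pull-down replicate 1 (-0.35, adjusted p = 0.0529) and without collagenase-sorted replicate 3 (-0.30, adjusted p = 0.057).

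Neuronal markers moved with Eef1a2 across these groups. Their summed CPM was 1545 to 1568 in pull-down, 8563 to 10690 with IgG1, 4.767 to 14.86 after collagenase sorting, where 11 of the 13 genes had reads and Syt1 and Gad2 had none, and 5.116 to 13.5 without collagenase, where 9 had reads and Syt1, Stmn2, Map2 and Gad2 had none. Markers of other cells moved likewise. Summed CPM of 8 oligodendrocyte markers was 1591 to 1767 in pull-down, 6713 to 8520 with IgG1 and 111.1 to 145.9 after collagenase sorting. For 8 astrocyte markers it was 821.2 to 846.6, 3687 to 3766 and 155.4 to 253.6. The part of these cell types in the Eef1a2 values was not tested.

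**Figure D1:**
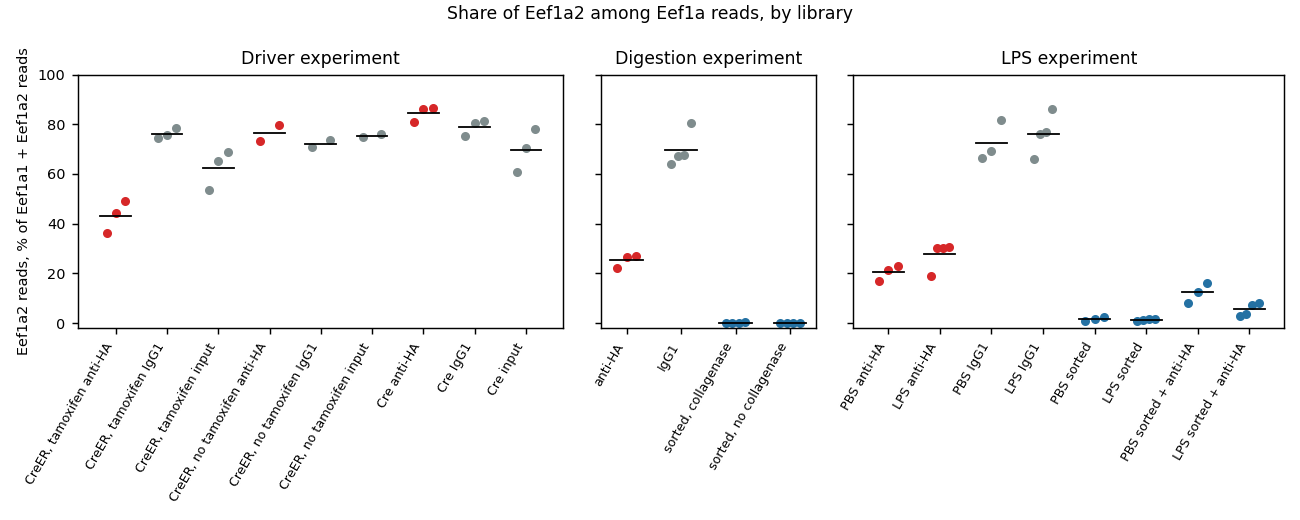
Share of Eef1a2 among the summed reads of Eef1a1 and Eef1a2 (percent, y axis) in each library, by group (x axis) and experiment. Points are libraries and black lines group means, with pull-downs from whole brain in red, IgG1 and input in grey, and preparations from sorted cells in blue. The tamoxifen pull-downs lie between 16.8% and 49.2%, the constitutive pull-downs between 80.8% and 86.5%, and sorted cells without pull-down between 0% and 2.53%.

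The LPS experiment gave the same order of pull-down, IgG1 and sorted cells. In PBS mice Eef1a1 stood at 2023, 1665 and 1376 CPM in pull-down and 583, 455 and 450.4 CPM with IgG1 (1.76 ± 0.23, adjusted p = 1.13e-08). Eef1a2 stood at 409.8, 499 and 374 against 1321, 2034 and 887 CPM (-1.72 ± 0.23, adjusted p = 2.77e-08). The 2 genes thus differed from IgG1 in opposite directions, each without overlap. In PBS mice, the Eef1a2 share was 20.4% ± 3.22 (SD, n = 3) in pull-down, 72.5% ± 8.15 (SD, n = 3) with IgG1, 1.65% ± 0.905 (SD, n = 3) in sorted cells and 12.4% ± 4.09 (SD, n = 3) in pull-down from sorted cells, and no group overlapped another. Eef1a2 itself was higher after the further pull-down, going from 12.8, 6.92 and 23.8 CPM in sorted cells to 121, 81.4 and 167 CPM (log2 fold change 3.15 ± 0.37, adjusted p = 1.49e-08). Eef1a1 had like levels in those preparations, 737, 956 and 919 against 835, 918 and 857 CPM (-0.00 ± 0.23, adjusted p = 1). Summed neuronal markers were 80.67 to 172.4 CPM in the sorted cells and 310.9 to 618.9 CPM after the further pull-down. Oligodendrocyte markers were 151.3 to 267.7 and 403.4 to 679.6 CPM, and astrocyte markers overlapped, at 292.4 to 493.4 and 373.8 to 625.6 CPM. The part of these cell types in the Eef1a2 difference was not tested.

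Most of the other elongation genes were higher in the tamoxifen pull-down than in input. Of the 8 elongation members 6 were higher and 1 lower, and Eef1a2 was the member not called. Of all genes 28.7% were higher and 35.5% lower. Eef2, the translocase, stood at 2526, 2586 and 2469.7 CPM against 732, 695 and 488 CPM in input and 1319, 1440.2 and 1185 CPM with IgG1. All pull-down values lay above all control values, and the log2 fold change was 1.99 ± 0.20, adjusted p = 4.13e-11 against input and 0.94 ± 0.19, adjusted p = 4.76e-05 against IgG1. Eef1d, a nucleotide exchange subunit of eEF1B, stood at 285, 288 and 257 CPM in pull-down and 42.0, 48.4 and 40.6 CPM in input (2.66 ± 0.21, adjusted p = 1.46e-13). Eef1b2, the other exchange subunit, differed by 1.59 ± 0.20. Eef1g, the structural subunit, differed by 0.53 ± 0.17, adjusted p = 0.00671, which total-count scaling reduced to 0.06, adjusted p = 0.747. Eef2k, the calcium- and calmodulin-dependent kinase that inhibits eEF2, stood at 73.2, 101 and 69.6 CPM in pull-down and 7.01, 14.9 and 16.5 CPM in input, with no overlap (2.62 ± 0.29, adjusted p = 8.54e-10). The lower member was Eef1e1, which despite its name is a scaffold protein of the aminoacyl-tRNA synthetase complex, at 21.8, 16.4 and 19.6 CPM against 58.2, 60.4 and 51.3 CPM in input (-1.54 ± 0.32, adjusted p = 6.47e-05).

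Over all members, 28 were higher and 11 lower in the tamoxifen pull-down than in input, while 64.2% of all tested genes were called in this comparison (28.7% higher and 35.5% lower). The median log2 fold change was 0.44 over members and -0.28 over all genes. The level of 0 depended on the scaling: with total counts in place of TMM, the median of all genes moved by -0.46 and the split became 20 higher and 19 lower. A change of scaling moves all genes of a library alike. Of the 63 members, 44 lay above the all-gene median.

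Among initiation factors the counts differed by role, where 28.7% of all genes were higher and 35.5% lower. Of the 14 eIF3 members 8 were above input in the pull-down and none below, among them the core subunit Eif3b (1.58 ± 0.20), the mRNA-binding subunit Eif3d (1.66 ± 0.22), Eif3f (1.13 ± 0.24) and Eif3k (1.04 ± 0.19). In the group of eIF2 and its exchange factor, 2 of 11 members were higher and 3 lower. This group also holds Eif2a and Eif2d, which are subunits of neither. Of the 11 cap-binding and helicase members 7 were higher and 3 lower. Eif4b, a partner of the helicase, was higher by 1.83 ± 0.20 and Eif4a3, the helicase of the exon junction complex, by 1.41 ± 0.26. The helicase genes went apart: Eif4a1, the main translational form, stood at 315, 392 and 350 CPM in pull-down and 177, 172 and 171 CPM in input, and Eif4a2, its paralog, at 12.8, 5.95 and 6.52 against 25.2, 35.8 and 28.1 CPM. For each gene the groups did not overlap, and the log2 fold changes were 1.02 ± 0.18, adjusted p = 8.41e-06 for Eif4a1 and -1.80 ± 0.36, adjusted p = 5.34e-05 for Eif4a2. Eif4e, the cap-binding protein, was lower in pull-down (-1.20 ± 0.28, adjusted p = 0.000369). No start-codon or subunit-joining member was higher and 2 of 7 were lower, Eif1a (-1.22 ± 0.35) and Eif1b (-0.63 ± 0.16), both factors of start-codon selection. Eif1a may share reads with its near-identical X-linked copy Eif1ax.

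Among the regulators, pull-down stood above input for 2 of 4 cap-binding inhibitors and 1 of 3 eIF2 kinases by the test's calls. It stood below input for 1 inhibitor, where 28.7% of all genes were higher and 35.5% lower. Eif4ebp1, which blocks eIF4E until it is phosphorylated, stood at 86.0, 96.6 and 62.0 CPM in pull-down, 5.61, 8.94 and 4.46 CPM in input and 4.50, 6.46 and 8.03 CPM with IgG1. The lowest pull-down value was far above the highest control value, and the log2 fold change was 3.71 ± 0.36, adjusted p = 1.85e-11 against input and 3.68 ± 0.37, adjusted p = 6.12e-11 against IgG1. Eif2ak2, the double-stranded RNA sensor PKR, stood at 69.3, 38.6 and 41.3 CPM against 7.71, 2.98 and 6.25 CPM in input (3.09 ± 0.42, adjusted p = 5.71e-08). Eif4ebp3 was higher by 1.97 ± 0.42 and Eef2kmt, a lysine methyltransferase of eEF2, by 2.96 ± 0.33. At the other end, Eif5a2, the less widespread paralog of the elongation and termination factor Eif5a, stood at 1.28, 0 and 1.09 CPM in pull-down and 13.3, 12.7 and 11.2 CPM in input (-3.71 ± 0.72, adjusted p = 1.73e-05). Eif4ebp2 was called lower (-1.23 ± 0.51, adjusted p = 0.0358), but without input replicate 3 its value was 0.08 (adjusted p = 0.888).

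Against IgG1, 30 members were higher and 16 lower in the tamoxifen pull-down, with 66.1% of all genes called (30.8% higher and 35.3% lower). The medians were 0.38 over members and -0.19 over all genes, and total-count scaling, which moved the latter by -0.53, gave 19 higher and 23 lower. Some factors were called lower against IgG1 and not against input. Eif3e, an eIF3 subunit, stood at 10.3, 5.95 and 6.52 CPM in pull-down, 7.71, 13.4 and 6.25 CPM in input and 69.1, 45.2 and 82.3 CPM with IgG1. The IgG1 libraries stood far above both of the others, and the log2 fold change against IgG1 was -3.09 ± 0.37, adjusted p = 2.86e-09. Eif2a, an eIF2-independent initiator tRNA-binding protein, was also highest with IgG1, with -2.08 ± 0.46 against IgG1 and IgG1 above input by 2.64 ± 0.42. Comparing IgG1 with input, 19 members were higher and 10 lower, where 35.0% of all genes were called (16.6% higher and 18.4% lower). These comparisons share their libraries, so their values are given side by side only.

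The pull-down against IgG1 was measured again in other mice. In PBS mice of the LPS experiment 32 members were higher and 9 lower, with 65.0% of all genes called (33.0% higher and 32.0% lower) and medians of 0.55 over members and -0.02 over all genes. DESeq2 size factors moved the all-gene median by -0.52 and gave 24 higher and 13 lower. Of the 62 members tested in this and the driver experiment, 27 were higher in both, which was 90.0% and 84.4% of the higher members of each, 9 were lower in both and none had opposite calls. Over all genes the corresponding shares of higher genes were 82.7% and 82.8%, with 65 genes called in opposite directions. Eif4ebp1, the member farthest above IgG1 in both, stood at 51.9, 50.6 and 43.6 CPM in pull-down and 6.75, 4.20 and 5.44 CPM with IgG1 in the PBS mice (3.09 ± 0.31, adjusted p = 9.75e-14). Eef2k (2.41 ± 0.27), Eif2ak2 (2.47 ± 0.30), Eef1d (1.86 ± 0.19) and Eif4a1 (1.62 ± 0.19) were also higher there. The 9 lower in both were Eif4e, Eif3e, Eif4g2, Eif4a2, Eif2a, Eif5a2, Eef1a2, Eif5 and Eif1a.

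In the digestion experiment 24 members were higher and 22 lower than IgG1 (74.5% of all genes called, 26.7% higher and 47.8% lower), and a fit of those 2 groups alone gave 32 higher and 7 lower. Of 61 members tested in this and the LPS experiment, 19 were higher than IgG1 in both, 8 lower in both and 4 (Eif3d, Eif3i, Eif6 and Eef2) had opposite calls. The 19 were 79.2% and 59.4% of the higher members of each, below the shares of 91.3% and 73.4% over all genes. The 8 were 38.1% and 100% of the lower members, where the shares over all genes were 64.4% and 95.9%. Of 10930 genes 130 had opposite calls. Eef2 stood at 1475, 1416 and 1396 CPM in pull-down and 2032, 1858, 2084 and 1860.3 CPM with IgG1 (-0.46 ± 0.13, adjusted p = 0.00202), and its value in the fit of the 2 groups alone was -0.02, adjusted p = 0.887. Eif4ebp1 stood at 76.6, 63.4 and 54.9 CPM in pull-down and 6.24, 6.56, 4.95 and 0 CPM with IgG1 (3.64 ± 0.27, adjusted p = 2.47e-15), apart in every library. Between the driver and digestion experiments, 19 of 61 members were higher in both, 12 lower in both and 3 (Eif4h, Eif6 and Eef2) opposite. The 19 were 63.3% and 79.2% of the higher members of each, below 71% and 89.9% over all genes, where 187 genes had opposite calls.

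**Figure D2:**
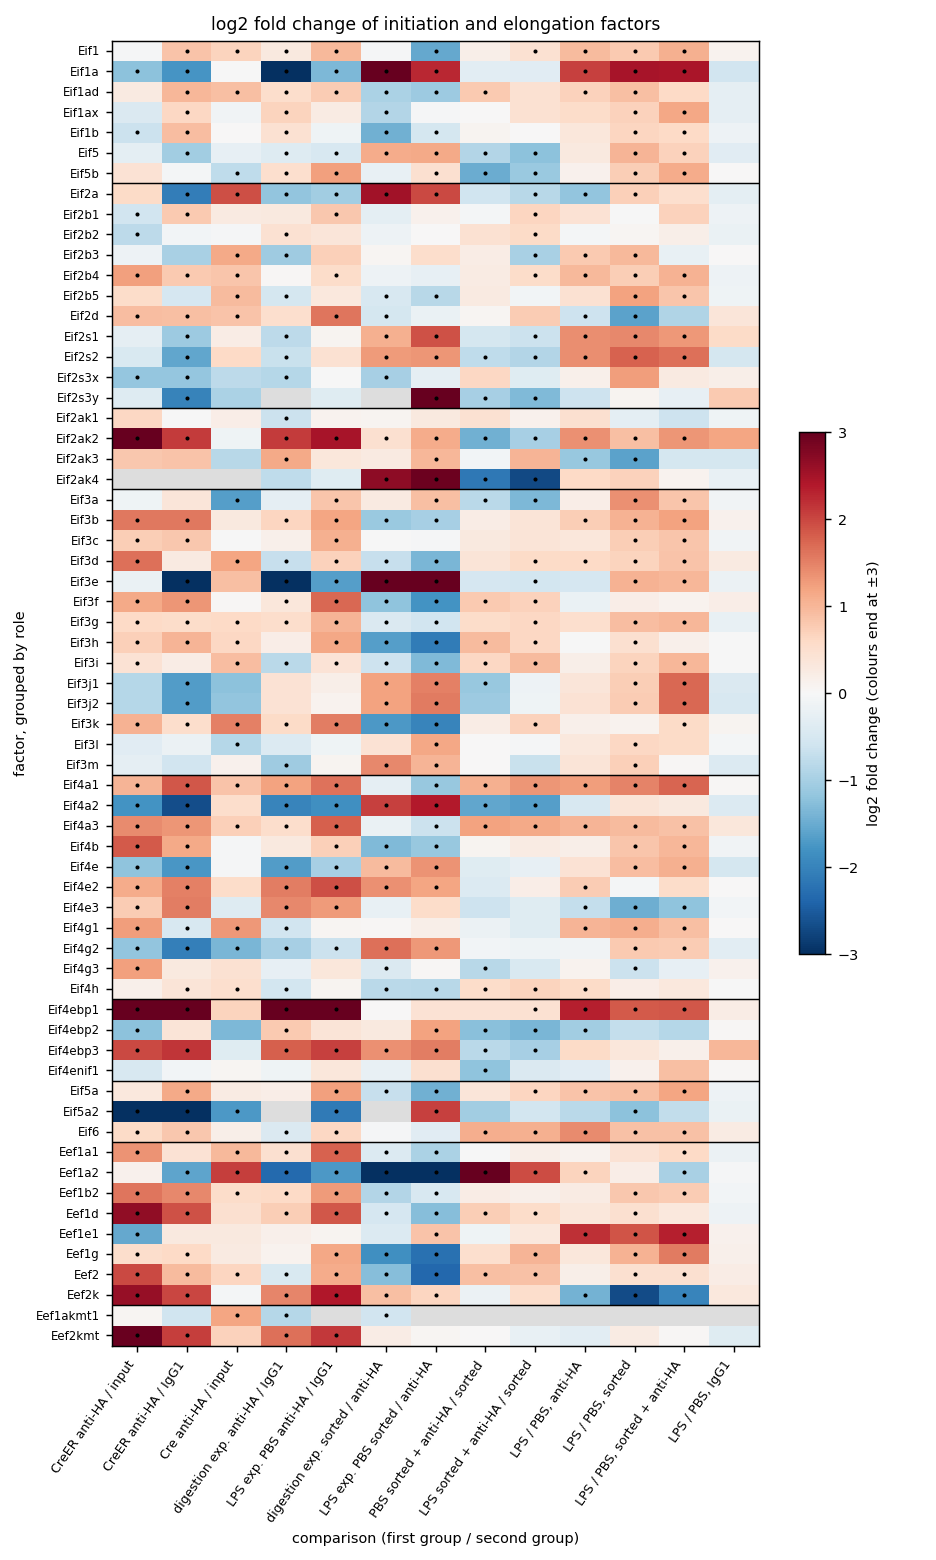
Log2 fold changes (colour, ends at ±3) of the members (rows, grouped by role with lines between roles) in 13 comparisons (columns, first group over second). Black dots mark calls at an adjusted p under 0.05, and grey cells members not tested. Eif4ebp1, Eif2ak2 and Eef2k are red in the pull-down columns of the tamoxifen mice, Eif3e, Eif1a and Eif4a2 are blue against IgG1 and red in sorted cells, and the last column, LPS in IgG1 libraries, has no call.

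With the constitutive driver Eif4ebp1 and Eef2k were not called, while both eEF1A genes were higher than in input. Against input, 21 members were higher and 5 lower (34.9% of all genes called, 18.1% higher and 16.8% lower, medians 0.26 over members and -0.02 over all genes), and without pull-down replicate 1 the counts were 21 and 4. Total-count scaling, which moved the all-gene median by -0.26, gave 12 higher and 8 lower. Eif4ebp1 stood at 12.6, 7.96 and 5.35 CPM in this pull-down and 7.77, 5.63 and 3.42 CPM in its input, in overlapping ranges (0.67 ± 0.43, adjusted p = 0.227). Eef2k stood at 11.4, 15.9 and 6.25 CPM and 12.0, 10.3 and 13.1 CPM (-0.05 ± 0.34, adjusted p = 0.918), also overlapping. Eef1a2 stood at 1884, 1989.6 and 2184 CPM in pull-down against 679.8, 427 and 328 CPM in input, with no overlap (2.08 ± 0.30, adjusted p = 1.15e-05). Eef1a1 was higher than input too (0.97 ± 0.24, adjusted p = 0.00178). Its pull-down values of 308, 310 and 520 CPM overlapped those with IgG1, at 648, 432 and 346 CPM. Against IgG1, 17 members were higher and 14 lower (38.8% of all genes called, 20.5% higher and 18.3% lower). With total counts the split was 10 and 21, and leaving out pull-down replicate 1 gave 18 and 12. The calls of Eef1a1 and Eef1a2 against input held without pull-down replicate 1. Eef1a2 did not pass the threshold against IgG1 (0.21 ± 0.29, adjusted p = 0.601).

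The pull-downs of the 2 drivers were compared directly. In the constitutive pull-down 12 members were higher and 21 lower than in the tamoxifen pull-down (55.7% of all genes called, 30.2% higher and 25.6% lower, medians -0.15 over members and 0.20 over all genes), and total-count scaling gave 18 and 19. Without constitutive pull-down replicate 1 the counts were 10 and 20. Eif4ebp1 (-3.17 ± 0.35), Eif2ak2 (-3.09 ± 0.43) and Eef2k (-2.83 ± 0.31) were lowest, and Eef1d (-2.19 ± 0.21) and Eef2 (-1.31 ± 0.19) were lower too. Eif4a2 (1.87 ± 0.37), Eef1a2 (1.82 ± 0.30) and Eef1e1 (1.50 ± 0.32) were higher. Eef1a1 went the other way from Eef1a2 (-0.95 ± 0.23, adjusted p = 0.000883). The interaction of driver with pull-down against input was called for 28 members, 11 higher and 17 lower with the constitutive driver, where 43.6% of all genes were called (23.9% higher and 19.7% lower). DESeq2 size factors gave 4 and 18 and total counts 16 and 13, and leaving out constitutive pull-down replicate 1 gave 10 and 14. Eef1a2 (1.95 ± 0.42, adjusted p = 0.000553) and Eef2k (-2.67 ± 0.45, adjusted p = 9.02e-06) were among the 28, and Eef1a1 was not (-0.38 ± 0.33, adjusted p = 0.362). The Eef1a2 share was 41.2 percentage points higher in the constitutive than in the tamoxifen pull-down, and 40.4 points without that replicate.

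Without tamoxifen, 10 members were higher and 2 lower in pull-down than in input (10.9% of all genes called, 6.44% higher and 4.46% lower), and 1, Eif5a, was higher than with IgG1 (8.13% of all genes called, 5.01% higher and 3.13% lower). These groups had 2 libraries, and leaving out 1 library at a time gave 3 to 7 called members against input and 0 to 2 against IgG1, where a lone library left in a group is assumed to vary like the other groups. Eef2k stood at 43.1 and 46.2 CPM in these pull-downs, between the tamoxifen pull-down and 12.9 and 12.6 CPM in its own input (1.79 ± 0.49, adjusted p = 0.0118), and with 1 pull-down library left the fold change hardly moved while the call was lost (1.80, adjusted p = 0.125 without replicate 1 and 1.76, adjusted p = 0.0904 without replicate 2). Summed microglial markers were 13550 to 15470 CPM in the pull-downs without tamoxifen.

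Sorted cells were compared with pull-down in both the digestion and the LPS experiment. Members were called about as often as all genes. In the digestion experiment 17 members were higher and 24 lower in collagenase-sorted cells than in pull-down (66.1% of members and 72.8% of all genes called, 31.6% higher and 41.1% lower), with a median of -0.18 over members and over all genes. Cells sorted without collagenase gave 20 higher and 26 lower (74.2% of members and 72.8% of all genes, 31.9% higher and 40.9% lower), or 25 and 20 with total counts. PBS mice of the LPS experiment gave 25 higher and 22 lower (74.6% of members and 71.9% of all genes, 33.2% higher and 38.7% lower). Of 61 members tested in both experiments, all 17 called higher in collagenase-sorted cells were also higher in the PBS mice, which was 73.9% of the 23 higher there. Of the lower members 19 were lower in both (82.6% and 86.4%), and none had opposite calls. Over all genes these shares were 86.3% and 82.7% of higher genes and 83.0% and 87.8% of lower genes, with 37 opposite, so the overlap of members was near that of all genes.

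Elongation genes (8 members) and eIF3 subunits (14 members) made up 13 of the 19 members lower in sorted cells in both experiments, of 61 tested. Of the 8 elongation members 6 were lower in each experiment. Of all genes, 41.1% were lower and 31.6% higher in the digestion experiment, and 38.7% and 33.2% in the PBS mice. Eef2 stood at 707, 652, 481 and 502 CPM in collagenase-sorted cells and 1475, 1416 and 1396 CPM in pull-down of the digestion experiment (-1.29 ± 0.13, adjusted p = 2.37e-11). In the PBS mice it stood at 537, 505 and 493 against 2514, 2586 and 2743 CPM (-2.35 ± 0.18, adjusted p = 3.73e-18). The groups were far apart in both experiments. Eef1g differed by -1.85 ± 0.13 in the digestion experiment and -2.23 ± 0.20 in the PBS mice. Eef1d differed by -0.50 ± 0.15 and -1.29 ± 0.19, and Eif5a by -0.69 ± 0.13 and -1.44 ± 0.17. Of the 14 eIF3 members 7 were lower and 4 higher in the digestion experiment, with a median of -0.22 beside -0.18 over all genes. In the PBS mice 7 were lower and 6 higher, with a median of -0.31 beside -0.15 over all genes. These eIF3 counts were not far from the shares of all genes. The lower ones were the same 7 genes in both, Eif3b, Eif3d, Eif3f, Eif3g, Eif3h, Eif3i and Eif3k. The lowest were Eif3h (-1.66 ± 0.14 and -2.09 ± 0.18) and Eif3k (-1.71 ± 0.15 and -1.97 ± 0.18), both peripheral subunits.

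Among the members higher in sorted cells, Eif3e, in contrast to Eif3h and Eif3k, stood at 41.8, 40.5, 39.0 and 47.7 CPM in collagenase-sorted cells and 2.27, 2.49 and 0.638 CPM in pull-down (4.49 ± 0.44, adjusted p = 3.25e-11). In the PBS mice it stood at 84.3, 52.6 and 67.3 against 5.11, 8.54 and 9.17 CPM (3.16 ± 0.30, adjusted p = 6.52e-15). No library of 1 preparation reached the range of the other. Eif4a2 was higher by 2.06 ± 0.22 and 2.39 ± 0.27, and Eif1a by 4.20 ± 0.42 and 2.27 ± 0.33. The former value of Eif1a rests on 2, 1 and 4 reads in the pull-down libraries. Eif4e was higher by 0.96 ± 0.28 and 1.34 ± 0.32. The alpha and beta subunits of eIF2 were higher as well, Eif2s1 by 1.07 ± 0.21 and 1.91 ± 0.29 and Eif2s2 by 1.29 ± 0.21 and 1.33 ± 0.21. Eif2ak4, the amino-acid sensor GCN2, was higher by 2.69 ± 0.42 and 2.94 ± 0.47. Its pull-down libraries held only 4, 4 and 5 reads in the digestion experiment and 2, 5 and 5 in the PBS mice. Eif4ebp1, high in every pull-down of tamoxifen mice, did not pass the threshold in either experiment, at 0.01 ± 0.18, adjusted p = 0.951, and 0.43 ± 0.22, adjusted p = 0.0732. Eif2s3y, the Y-linked gene of the eIF2 gamma subunit, had no read in any of the 15 libraries of the digestion experiment, and in PBS mice of the LPS experiment it stood at 82.5, 41.5 and 64.5 CPM in sorted cells and 4.38, 2.63 and 3.06 CPM in pull-down (4.21 ± 0.37, adjusted p = 7.8e-16). Eif3j1 and Eif3j2 had the same count in 56 of 67 libraries and at most 2 reads apart in the others, so they are uncertain as separate genes.

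**Figure D3:**
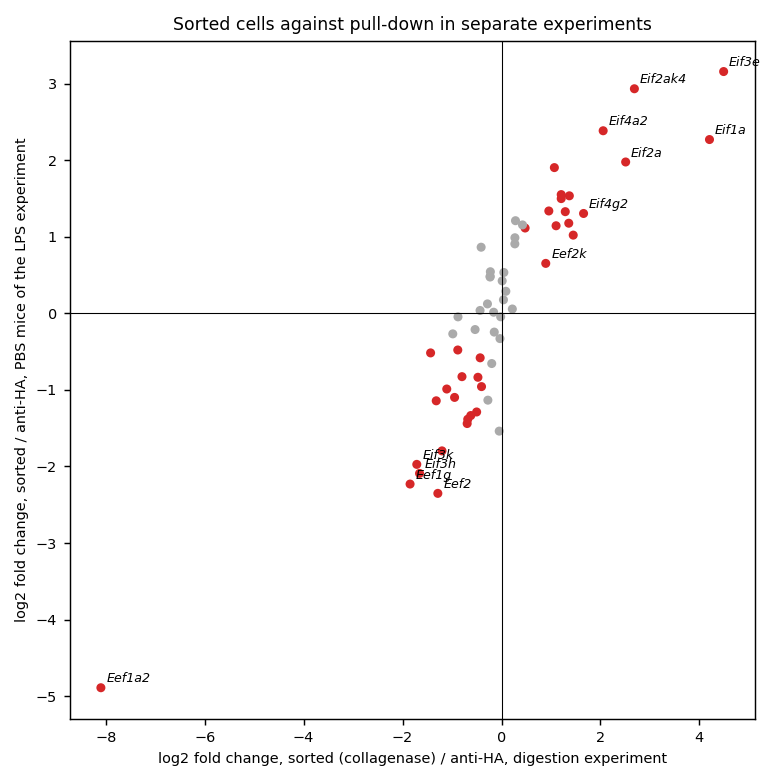
Log2 fold change of each member between sorted cells and whole-brain pull-down, in the digestion experiment (x axis, cells sorted after collagenase) and in PBS mice of the LPS experiment (y axis), which used other mice. Red points are members called in the same direction in both, grey points the rest. Eef1a2 lies far to the lower left, at -8.10 and -4.89, the former a fitted value that rests on 5 reads in sorted cells. Eif3e and Eif2ak4 lie at the upper right, both with few pull-down reads in the digestion experiment.

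The collagenase digest was compared within the sorted cells. Between cells sorted with and without it, 0 of 62 members passed edgeR's test (6 at an unadjusted p under 0.05, 0 with the DESeq2 Wald test), where 0.139% of all genes were called. Eif4a1 stood at 352, 316, 393 and 374 CPM with and 267, 314, 306 and 315 CPM without the digest (0.25 ± 0.12, adjusted p = 1), and every library with the digest lay above every library without it, by as little as 1 CPM between the nearest.

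Members with and without a pyrimidine run near the start were set side by side. In the digestion experiment 9 of 18 members with a run were lower and 4 higher in sorted cells (median -0.41), and of 30 without one 10 were lower and 8 higher (median -0.10), where 41.1% of all genes were lower and 31.6% higher. In the PBS mice 8 of 19 with a run were lower and 7 higher (median 0.02), and of 31 without one 10 were lower and 13 higher (median 0.06), where 38.7% of all genes were lower and 33.2% higher. After LPS in sorted cells, 9 of 19 with a run rose and 1 fell (median 0.61). Of 31 without one, 20 rose and 4 fell (median 0.73), where 17.0% of all genes were higher and 17.6% lower. In whole-brain pull-down 4 of 19 with a run rose and 1 fell (median 0.18). Of 31 without one, 12 rose and 4 fell (median 0.43), where 15.5% of all genes were higher and 11.0% lower. In the tamoxifen pull-down against input, 7 of 18 with a run were higher and 4 lower (median 0.20). Of 31 without one, 13 were higher and 5 lower (median 0.56), where 28.7% of all genes were higher and 35.5% lower. The differences were not tested.

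Pull-down from sorted cells against the RNA of the same kind of sorted cells compared ribosome-bound with total RNA. The series holds no IgG1 library from sorted cells, so background RNA in this pull-down was not measured. Summed microglial markers were 108700 to 118400 CPM in the pull-down from sorted PBS cells and 56820 to 57880 CPM in the sorted cells. In PBS mice 11 members were higher and 13 lower in the pull-down (31.9% of all genes called, 16.6% higher and 15.2% lower), with medians of 0.01 over members and 0.04 over all genes. DESeq2 size factors gave 14 and 11 and total counts 7 and 19. In LPS mice 20 were higher and 14 lower (31.9%, 15.2% higher and 16.7% lower), or 12 and 18 with total counts, which moved the all-gene median by -0.24 in PBS and -0.16 in LPS mice. The interaction of LPS with this contrast was called for no member and 0% of all genes (3 members at an unadjusted p under 0.05, 0 members with the DESeq2 Wald test).

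Beside Eef1a2, the helicase genes Eif4a1 and Eif4a3 were higher in pull-down from sorted cells than in the cells in both treatments. Summed neuronal markers were higher there too, at 310.9 to 618.9 against 80.67 to 172.4 CPM in PBS mice. In LPS mice they were 205.7 to 1077 against 83.16 to 199.4 CPM. Oligodendrocyte markers were 403.4 to 679.6 against 151.3 to 267.7 CPM in PBS mice. In LPS mice they overlapped, at 289.8 to 929.1 against 148.5 to 355.8 CPM. The part of these cell types in the Eef1a2 difference was not tested. Eif4a1 stood at 299, 326 and 285 CPM in pull-down from sorted PBS cells and 133, 156 and 147 CPM in the sorted cells (1.06 ± 0.20, adjusted p = 4.48e-05), with no overlap, and the LPS mice gave 1.33 ± 0.16. Eif4a3 differed by 1.21 ± 0.20 in PBS and 1.13 ± 0.16 in LPS mice. Eif6, which keeps the ribosomal subunits apart, differed by 1.08 ± 0.21 and 1.07 ± 0.17. Eef2 was also higher in this pull-down, by 0.90 ± 0.18 and 0.89 ± 0.15.

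Other members were lower in pull-down from sorted cells than in total RNA. Eif4a2 stood at 23.5, 18.5 and 28.7 CPM in pull-down from sorted PBS cells and 52.3, 74.7 and 95.3 CPM in the cells (-1.56 ± 0.31, adjusted p = 7.07e-05), opposite to Eif4a1, and at -1.65 ± 0.27 in LPS mice. Eif2ak4 differed by -2.14 ± 0.56 and -2.72 ± 0.48, and Eif2ak2 by -1.44 ± 0.27 and -1.01 ± 0.20. All of these passed the test in both treatments. The Eif2ak4 values rest on 3, 0 and 4 reads in pull-down from sorted PBS cells and 3, 1, 0 and 4 from LPS cells. Eif4ebp2, which is the form of the eIF4E-binding proteins abundant in brain, was called at -1.25 ± 0.38 in PBS mice, not without sorted pull-down replicate 1 (-0.97, adjusted p = 0.0989), and at -1.38 ± 0.44 in LPS mice.

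LPS was compared with PBS within each preparation, and members that rose outnumbered those that fell in all except the IgG1 libraries. In sorted cells 40 members rose and 6 fell (34.5% of all genes called, 17.0% higher and 17.6% lower), with medians of 0.72 over members and -0.01 over all genes. In pull-down from sorted cells 35 rose and 3 fell (25.6%, 12.7% higher and 12.9% lower), with medians of 0.69 and -0.07. In pull-down from whole brain 20 rose and 6 fell (26.5%, 15.5% higher and 11.0% lower), with medians of 0.35 and -0.03. In IgG1 libraries none passed edgeR's test (3 at an unadjusted p under 0.05), where 1.15% of all genes were called, and the DESeq2 Wald test called 1, Eif2ak2. Members above the all-gene median numbered 54 of 63 in sorted cells and 48 of 63 in whole-brain pull-down under TMM.

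By role, all 7 start-codon and subunit-joining members and 12 of 14 eIF3 members rose in sorted cells. So did 6 of 11 cap-binding and helicase members, while 2 of those fell. Of all genes 17.0% rose and 17.6% fell there. In whole-brain pull-down 3 of 7, 2 of 14 and 5 of 11 rose, where 15.5% of all genes rose and 11.0% fell. The eIF3 count was near that share. In pull-down from sorted cells 6 of 7, 10 of 14 and 6 of 11 rose, where 12.7% of all genes rose and 12.9% fell. The 8 elongation members include the inhibitor Eef2k and the synthetase scaffold Eef1e1. Of the 8, 5 rose and 1, Eef2k, fell in sorted cells, and 5 rose and 2 fell in pull-down from them. In whole-brain pull-down 2 rose, Eef1e1 among them, and 1, again Eef2k, fell. In the group of eIF2 and its exchange factor, with Eif2a and Eif2d counted in it, 6 of 11 members rose and 1 fell in sorted cells. In whole-brain pull-down 4 of them rose and 2 fell.

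Eif1a, which works with Eif1 in the search for the start codon, stood at 8.03, 9.85 and 6.11 CPM in pull-down of PBS mice and 34.9, 27.3, 45.5 and 24.9 CPM in that of LPS mice. In sorted cells it stood at 46.8, 22.1 and 47.7 against 225, 212, 245 and 191 CPM. Every LPS library exceeded every PBS library in both, and the log2 fold changes were 2.04 ± 0.30, adjusted p = 5.6e-08 and 2.46 ± 0.23, adjusted p = 1.92e-14. With IgG1 it was 20.3, 22.1 and 20.2 against 22.0, 8.82, 13.6 and 10.3 CPM, in overlapping ranges. Eif4a1 stood at 319.9, 314 and 321 CPM in pull-down of PBS mice and 625, 732, 632 and 1076 CPM in that of LPS mice (1.26 ± 0.17, adjusted p = 1.43e-08). It rose by 1.48 ± 0.19 in sorted cells and 1.76 ± 0.19 in pull-down from them, with no overlap in any of the 3 preparations. Its paralog Eif4a2 did not pass the threshold, at -0.48 ± 0.31, adjusted p = 0.275 in pull-down and 0.39 ± 0.22, adjusted p = 0.164 in sorted cells. Eif2s2, the beta subunit of eIF2, rose by 1.39 ± 0.19 in pull-down and 1.78 ± 0.18 in sorted cells, and the alpha subunit Eif2s1 by 1.38 ± 0.27 and 1.43 ± 0.22. Eif1 rose by 0.95 ± 0.15 and 0.79 ± 0.16, Eif5a by 0.86 ± 0.16 and 0.90 ± 0.16, and Eif6 by 1.43 ± 0.17 and 0.88 ± 0.19.

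The inhibitors Eif4ebp1 and Eef2k changed in opposite directions. Eif4ebp1 stood at 51.9, 50.6 and 43.6 CPM in pull-down of PBS mice and 212, 271, 235 and 270.1 CPM in that of LPS mice, and at 67.8, 69.2 and 58.9 against 207, 217, 234 and 274 CPM in sorted cells. LPS values lay above all PBS values, with log2 fold changes of 2.33 ± 0.19, adjusted p = 8.72e-17 in pull-down, 1.84 ± 0.19, adjusted p = 3.52e-12 in sorted cells and 1.87 ± 0.21, adjusted p = 3.38e-11 in pull-down from sorted cells. Eef2k stood at 84.0, 77.5 and 88.7 CPM in pull-down of PBS mice and 42.8, 29.2, 27.8 and 17.3 CPM in that of LPS mice, and at 119, 126 and 150 against 39.1, 18.3, 17.9 and 11.9 CPM in sorted cells. All LPS values lay below all PBS values, and Eef2k fell by 1.42 ± 0.21 on the log2 scale in pull-down, by 2.68 ± 0.26 in sorted cells and by 1.97 ± 0.30 in pull-down from sorted cells. The substrate Eef2 rose in sorted cells (0.49 ± 0.17, adjusted p = 0.0172), a call lost with total counts (0.38, adjusted p = 0.0541) and without sorted PBS replicate 3 (0.48, adjusted p = 0.0503), and was at 0.18 ± 0.16, adjusted p = 0.456 in whole-brain pull-down.

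**Figure D4:**
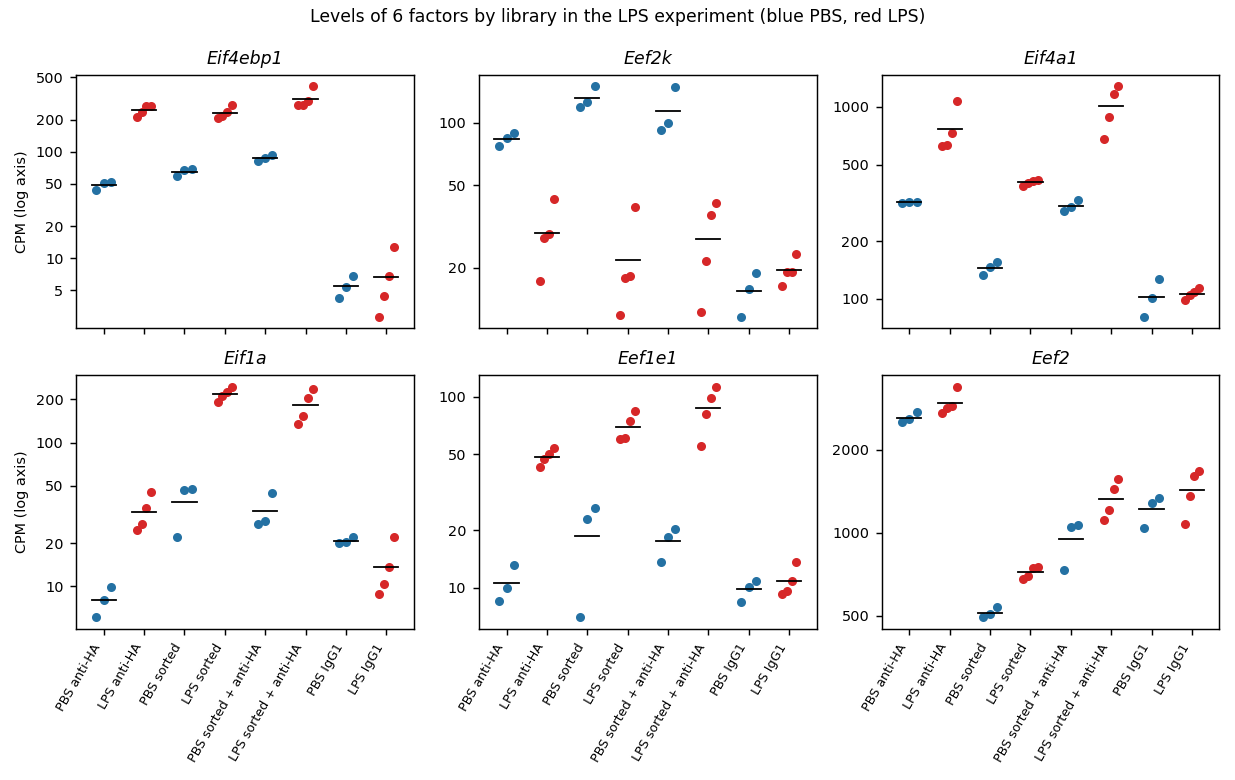
CPM (log axes with their own range in each panel) of 6 members by library in the LPS experiment, with PBS mice in blue, LPS mice in red and group means as black lines. Eif4ebp1, Eif4a1 and Eef1e1 lie higher and Eef2k lower after LPS in pull-down, sorted cells and pull-down from sorted cells, and the IgG1 groups at the right overlap in each panel.

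The eIF2 kinases differed among themselves. Eif2ak2 rose in all 3 preparations, by 1.36 ± 0.20 in pull-down, 0.89 ± 0.19 in sorted cells and 1.33 ± 0.29 in pull-down from sorted cells. Eif2ak3, the sensor PERK of the endoplasmic reticulum, fell in sorted cells (-1.61 ± 0.42, adjusted p = 0.00138) and was at -1.14 ± 0.39, adjusted p = 0.021 in pull-down, where the call was lost without any 1 of 4 libraries (PBS pull-down 1 or 3, LPS pull-down 2 or 3, down to -0.82, adjusted p = 0.209 without PBS pull-down replicate 3). Eif2ak1, the heme-regulated kinase, was at 0.48 ± 0.21, adjusted p = 0.0835 in pull-down and Eif2ak4 at 0.59 ± 0.54, adjusted p = 0.439. Eif4e3, an atypical member of the cap-binding family, fell in sorted cells, from 33.9, 44.3 and 40.6 to 15.6, 13.3, 13.7 and 14.3 CPM (-1.46 ± 0.30, adjusted p = 4.45e-05).

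The eEF1A genes gave no call with LPS that held under every alternative. Eef1a1 stood at 2023, 1665 and 1376 CPM in pull-down of PBS mice and 1339, 1857, 1640.1 and 2484 CPM in that of LPS mice, in overlapping ranges (0.11 ± 0.21, adjusted p = 0.74). Eef1a2 was called higher there (0.66 ± 0.21, adjusted p = 0.018), but not with DESeq2 size factors (0.55, adjusted p = 0.0584), total counts, or without PBS pull-down replicate 1 or 3 or LPS pull-down replicate 2, the lowest of these values being 0.49, adjusted p = 0.0663 with total counts. Eef1a1 was called in pull-down from sorted cells (0.60 ± 0.22, adjusted p = 0.0373), but not with DESeq2 size factors (0.53, adjusted p = 0.0698), nor without any 1 of 6 libraries, down to 0.46, adjusted p = 0.158 without LPS replicate 4. In pull-down from sorted cells Eef1a2 was called lower (-0.98 ± 0.32, adjusted p = 0.0173), a call lost without PBS replicate 3 (-0.76, adjusted p = 0.14), LPS replicate 1 (-0.78, adjusted p = 0.105) or LPS replicate 4 (-0.81, adjusted p = 0.101). The Eef1a2 share was 27.6% ± 5.66 (SD, n = 4) in whole-brain pull-down of LPS mice and 20.4% ± 3.22 (SD, n = 3) in that of PBS mice (exact two-sided permutation p = 0.114, adjusted p = 0.16). Summed neuronal markers in pull-down from sorted cells were 310.9 to 618.9 CPM in PBS and 205.7 to 1077 CPM in LPS mice. Oligodendrocyte markers were 403.4 to 679.6 and 289.8 to 929.1 CPM. The part of these cell types in the Eef1a2 values was not tested. 

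Eef1e1 stood at 13.1, 8.54 and 9.94 CPM in whole-brain pull-down of PBS mice and 43.2, 54.0, 50.2 and 47.5 CPM in that of LPS mice, with no overlap (2.19 ± 0.26, adjusted p = 1.73e-10), and rose by 1.88 ± 0.26 in sorted cells. Eef1g rose in sorted cells (1.04 ± 0.19, adjusted p = 1.23e-05) and in pull-down from them (1.57 ± 0.20, adjusted p = 4.27e-09), from 129, 129.5 and 109.6 to 330.4, 319, 308 and 459.8 CPM in the latter. Eef1b2 rose by 0.81 ± 0.17 in sorted cells and 0.75 ± 0.18 in pull-down from them. In whole-brain pull-down Eef1g was at 0.33 ± 0.16, adjusted p = 0.124 and did not pass the threshold.

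The effect of LPS was tested for a difference between preparations. Between pull-down and IgG1 the effect differed for 12 members, 11 with a higher LPS fold change in pull-down (8.58% of all genes called, 5.60% higher and 2.98% lower), among them Eif1a (2.62 ± 0.43, adjusted p = 7.41e-06), Eif4ebp1 (2.11 ± 0.48), Eef1e1 (2.08 ± 0.44) and Eif2s2 (1.91 ± 0.30), and 1, Eef2k, with a lower one (-1.73 ± 0.37). Between sorted cells and whole-brain pull-down it differed for 6 members (3.21% of all genes called, 0.795% higher and 2.41% lower), and leaving out 1 library at a time gave 1 to 8. Eif2a was called under every setting and with any library left out: the difference was 1.91 ± 0.45, adjusted p = 0.00681. Its changes within each preparation lost their calls without single libraries, with little change in fold: 0.72 ± 0.25 in sorted cells, or 0.67, adjusted p = 0.074 without PBS sorted replicate 1, and -1.19 ± 0.38 in pull-down, or -1.04, adjusted p = 0.0755 without PBS pull-down replicate 1, -1.06, adjusted p = 0.0685 without replicate 3 and -1.04, adjusted p = 0.0597 without LPS pull-down replicate 1. The others were Eif3e, Eif3a and Eif4g2, with a higher LPS fold change in sorted cells than in pull-down, and Eef2k and Eif4g3, with a lower one, and each was lost without at least 1 library. In LPS mice, pull-down against IgG1 gave 48 members higher and 7 lower (73.0% of all genes called, 37.6% higher and 35.3% lower, medians 1.05 over members and 0.02 over all genes), or 31 and 13 with DESeq2 size factors, which moved the all-gene median by -0.66.

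Other genes of the translation pathway were counted from lists. Of 20 cytosolic tRNA synthetases, which charge tRNAs with amino acids, 16 rose with LPS in sorted cells, 10 in whole-brain pull-down and 15 in pull-down from sorted cells, and none fell, with medians of 0.82, 0.57 and 0.97. Of 9 tested genes of the integrated stress response, the programme downstream of eIF2 phosphorylation, 5, 8 and 6 rose in those preparations and none fell, with medians of 1.45, 1.41 and 1.29. Atf4, its main transcription factor, rose by 1.45 ± 0.17 in sorted cells and 1.50 ± 0.16 in whole-brain pull-down, and the threonyl-tRNA synthetase Tars by 1.50 ± 0.17 and 1.37 ± 0.16. Among 15 genes of termination, recycling and poly(A) binding, 4 rose and 2 fell in sorted cells, among them Etf1, the release factor (1.70 ± 0.18), and Pdcd4, an inhibitor of eIF4A that fell (-2.24 ± 0.36). Of 6 mitochondrial translation factors 1 rose in whole-brain pull-down and 1 in pull-down from sorted cells. These lists were drawn up with earlier results of these data known, and all genes together had the percentages of calls given above.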

How the data were processed

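Reads per gene were counted by the authors, and the deposited tables hold whole-number counts for each library, 1 table for each experiment with 24411, 24411 and 24421 genes. The submitters' processing notes name bcl2fastq, HISAT 0.1.5, HOMER and the mouse build mm9, and whether strand was used is not given in the sources used here. Counts of Eif3j1 and Eif3j2, of Eif1a and Eif1ax, and of Eef1a1 and its near-identical copies may be split or shared between genes.

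Here genes with low counts were removed (filterByExpr of edgeR, minimum count 10), which left 11868, 11529 and 11444 genes, and libraries were scaled by TMM. All libraries of an experiment entered 1 edgeR quasi-likelihood fit (edgeR 4.0.16, limma 3.58.1, R 4.3.3). On simulated data, where few genes differed and in both directions alike, this fit recovered known changes. Those data did not test the scaling where most genes differ between groups, as in the tamoxifen pull-down against IgG1. Library totals and the number of mice set the precision. The Eef1a2 share was compared by exact permutation over libraries, with adjustment over 21 comparisons. Alternatives were DESeq2 size factors, total counts, the DESeq2 1.42.0 Wald test, no filter, only the groups compared, a replicate block and leaving out each library. No library pair within a group was identical in its counts.

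The members, role groups, pathway lists and markers were chosen with earlier results of these data known. Always described were Eef1a1, Eef1a2, Eef2, Eef2k, Eef1b2, Eef1d, Eef1g, Eif4a1, Eif4a2, Eif4ebp1 to Eif4ebp3, Eif2ak1 to Eif2ak4, Eif5a, Eif5a2, Eif4e, Eif4e3, Eif1 and Eif1b where they bore on a comparison, with the 5 called members of largest and the 5 of smallest fold change among those whose higher group averaged 10 CPM or more. Eif2a, Eif2s1, Eif2s2, Eif3b, Eif3d, Eif3f, Eif3k, Eif4a3, Eif4b, Eif6, Atf4, Tars, Etf1 and Pdcd4 were named in some comparisons outside this rule, after their values were seen. Promoter windows came from RefSeq (GRCm38.p6) and matched 50 members by symbol. Transcript lengths and protein sequences were not used here.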

Additional observations from a re-analysis of the deposited data

Results flagged for a closer look

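In the IgG1 libraries of the digestion experiment, Eif4a1 stood at 238.6 CPM in replicate 1 and at 166.7 to 169.8 CPM in the other 3, a gap that passed Dixon's criterion for 1 value apart from the rest of its group. The Eef1a2 share of eEF1A reads was 19.1% in LPS pull-down replicate 4 and 30.3% to 30.7% in the other 3 LPS pull-downs. These were 2 of 63 group values, and chance marks about 1 in 20. Among the 63, the level and share of Eef1a2 in cells sorted without collagenase were 0 in every library and could not be checked.

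Effects that differed between groups by an interaction test were counted for 3 contrasts. The difference of pull-down from input depended on the driver, constitutive or tamoxifen, for 28 members. This was 44.4% of members, near the 43.6% of all genes. The effect of LPS differed between whole-brain pull-down and IgG1 for 12 members (19% of members and 8.58% of all genes). Between sorted cells and whole-brain pull-down it differed for 6 (9.52% of members and 3.21% of all genes).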

How the results depend on the processing

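Of the fold changes of named genes recomputed under the alternatives, 8236 kept direction and side of the threshold, 297 lost and 101 gained a call, and 7 reversed. The reversed values were Eif4ebp2 in the tamoxifen pull-down against input (-1.512 to 0.082 leaving out 1 library, the latter without input replicate 3) and, in LPS pull-down against IgG1, Eif4e3 (-0.01 when scaled by size factors of DESeq2, -0.011 in its Wald test), Eif1b (-0.30 with size factors, -0.20 with total counts and -0.29 with the Wald test) and Eef2k (-0.009 with the Wald test); the cause was not tested. Counts of called members stayed within 1.5 times in 313 of 335 recomputed counts. Without tamoxifen, the count against IgG1 was 2 with no filter and 2 with the replicate block, and 0 to 2 leaving out 1 library, and that against input was 3 to 7. For LPS in IgG1 libraries it was 1 with DESeq2 size factors, 1 with no filter, 1 with the replicate block and 1 with the Wald test, and 0 to 1 leaving out 1 library. For LPS between sorted cells and pull-down it was 1 to 8. Leaving out 1 library, the difference in Eef1a2 share ranged from -2.24 to 4.23 percentage points for pull-down against input without tamoxifen and from -0.73 to 0.18 for LPS in sorted cells. Deviations of same-numbered libraries from their group means had correlations over 0.1 in 1 of 24, 2 of 21 and 6 of 42 pairs. Libraries with different numbers were not compared in this way, so these values cannot decide whether the numbers mark animals. No label says that they do, so the numbers were not taken to pair libraries and the replicate block is given only here. Groups of 2 libraries without tamoxifen, and 166851 reads in the shallowest pull-down from sorted cells, limit what could be called there.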
